A study of Mus musculus with 2 samples.

Results

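Leukemia inhibitory factor (LIF), ciliary neurotrophic factor (CNTF) and their relatives form a family of secreted cytokines that share a receptor chain, gp130, encoded by Il6st. A ligand brings gp130 together with the LIF receptor (Lifr) or the oncostatin M receptor (Osmr), and CNTF and cardiotrophin-like cytokine factor 1 (Clcf1) also need the CNTF receptor α chain (Cntfr). The bound Janus kinase (Jak1) then phosphorylates STAT3, which enters the nucleus and activates its target genes, and among these is Socs3, an inhibitor that closes the loop. In the brain, the pathway is known for driving precursor cells towards the astrocyte fate and for the reactive state of astrocytes.

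The 9 genes described here are Lif, Clcf1 and Cntf (ligands), Lifr, Osmr and Cntfr (receptor chains), Jak1, Stat3 and Socs3. They were taken by symbol from the deposited tables, which together list 16302 genes, and 8 of them were listed in both tables. The data come from cultured astrocytes of the dentate gyrus (DG) of adult C57BL/6 mice (C57BL/6J in the methods), with a single RNA sequencing library from WT mice and another from β-arr1 KO mice. The knockout is constitutive, the mice came from heterozygous breeding or from lines bred separately as homozygotes, both groups were grown in serum-containing medium and shaken to detach other cells, no further treatment is given, and the cDNA was pooled, with samples collected from several mice per group. With 1 library per genotype, a difference between the libraries has no replicate check, and no test of genotype was possible. The values are FPKM (fragments per kilobase of transcript, scaled to the mapped fragments of the library), a level scaled for transcript length. A ratio is β-arr1 KO vs. WT, and the limits of 3/2 and 2/3 that the study used were kept.

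The depth was fitted so that as many of the lowest FPKM values as possible lay within 5% of steps of 1, 2 or 3 fragments. The best fit put the depth at 9.38 M mapped fragments in WT and 9.52 M in KO. It placed 70.7% of 416 genes in WT and 70.8% of 435 in KO near a step. As the fit made this share highest, the share is no check of the depth. Fragments per gene were estimated from this depth and the longest annotated transcript, and they gave a 95% counting interval for each level (exact Poisson) and for each ratio (exact Clopper-Pearson). These intervals cover counting error only and not the spread between animals or cultures. Arrb1, the targeted gene, was at 7.62 (WT) and 2.72 FPKM (KO). Summed FPKM of 8 astrocyte markers was 299.5 in WT and 336.5 in KO, and all 8 were listed in both. Sums of the other marker lists also differed between WT and KO, at 427 and 341 for 8 microglia genes, 521 and 285 for 6 fibroblast and pericyte genes, 40.8 and 28.6 for 5 endothelial genes, 85.5 and 127 for 8 oligodendrocyte lineage genes and 45.2 and 60.5 for 6 neuron genes. The neuron sums were nearly all Tubb3 (44.7 and 59.8 FPKM), with the other 5 genes below 1 FPKM. The endothelial sums rested on Cdh5 (31.8 and 16.1 FPKM), and of the 4 endothelial genes at 1 FPKM or above, 2 had a ratio over 1 and 2 under 1. Of the markers at 1 FPKM or above, 3 of 8 astrocyte, 4 of 7 oligodendrocyte lineage and 1 of 4 endothelial genes were above 3/2, and 4 of 4 fibroblast and pericyte genes, 1 of 8 microglia genes and 1 of 4 endothelial genes were below 2/3. Pdgfrb was in neither table, Lum was not listed in KO, and Mog and Dcx were not listed in WT. Of 4 Y-linked genes looked up, 4 were listed in KO (8.44 FPKM in sum) and 0 in WT, so a difference in sex and one in genotype cannot be told apart. In such bulk samples, fewer cells of a type and less RNA per cell cannot be told apart either, and the part of these differences in the results below was not tested.

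The 8 listed members ranged over a wide span of levels in both libraries. In WT, Stat3 had the highest level at 50.8 FPKM (95% interval, 49.0 to 52.7), above 91.1% of the listed genes. Clcf1 at 42.3 FPKM and Jak1 at 41.4 FPKM followed, with overlapping intervals. Socs3 at 14.6 FPKM and Osmr at 13.97 FPKM also overlapped. Lif at 10.5 FPKM, Cntfr at 6.72 FPKM and Lifr at 2.06 FPKM stood apart from their neighbours in this order. In KO, Clcf1 came first as deposited at 96.8 FPKM, followed by Stat3 and Jak1, but its row was shorter there. Rescaled to the WT row, its value was 49.9 FPKM, inside the Stat3 interval of 46.7 to 50.4 FPKM. This rescaling counts no fragments in the bases missing from the KO row, so the rank of Clcf1 in KO is uncertain. In the same library, Cntfr (8.06 FPKM) and Lif (8.02 FPKM) had overlapping intervals. Lifr was the lowest of the listed members in both libraries.

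**Figure D1:**
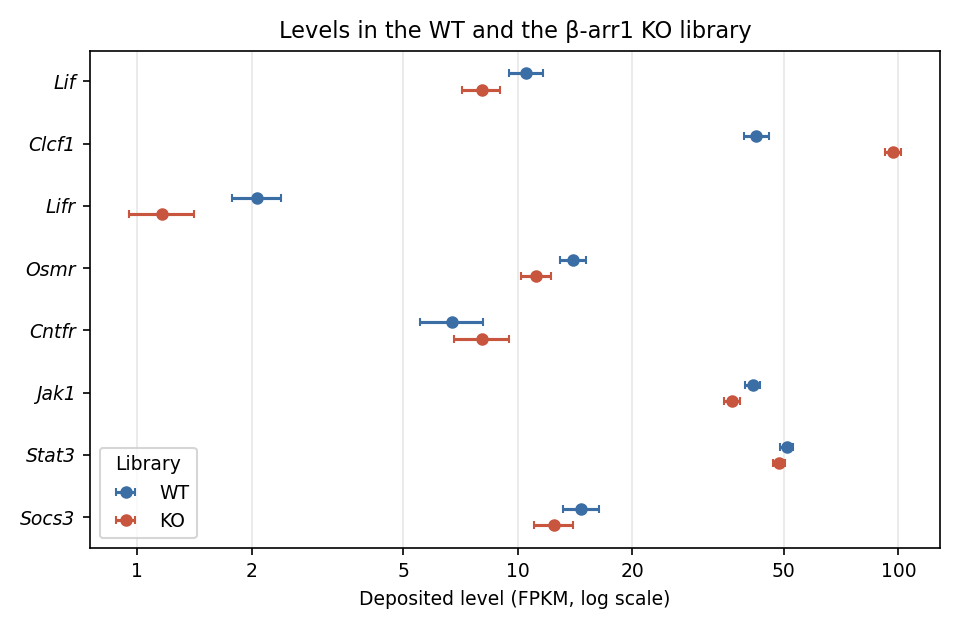
Deposited FPKM (log scale) of the 8 listed members in the WT and the β-arr1 KO library, 1 library per genotype. Bars are 95% Poisson intervals of the fragments estimated from the longest annotated transcript and cover counting error only. Clcf1 as deposited lies higher in KO (49.9 FPKM there after rescaling to the WT row, not drawn) and Lifr lower, while Stat3 stays near 50.8 and 48.6 FPKM.

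The ratio was past the limits in 2 of the 8 listed members, Clcf1 above 3/2 and Lifr below 2/3. Among all 12646 genes at 1 FPKM or above in WT, KO or both, 17.8% were past the limits, 9.56% above 3/2 and 8.28% below 2/3. Of the 12171 of these genes listed in both tables, as the 8 members are, 14.6% were past the limits. The remaining 6 members lay between the limits. The median log2 ratio of the 8 members was -0.21, and that of all genes listed in both tables was 0.02. The counting interval lay wholly below 1 in 5 members (Lif, Lifr, Osmr, Jak1 and Socs3), wholly above 1 in Clcf1 and included 1 in Cntfr and Stat3. Over all 11837 genes listed in both tables with an annotated transcript, it lay below 1 in 17.9% and above 1 in 21.8%. Intervals are narrower for genes with more fragments, so these counts reflect the level as well. With the shortest coding transcript, the interval of Jak1 was 0.656 to 1.19 and included 1. With the exon bases inside each row, that of Clcf1 was 1.00 to 1.25. The 5 members below 1 lay in the direction of the summed microglia markers and the summed fibroblast and pericyte markers. The endothelial sum was also lower in KO but rested on Cdh5. Of the 4 endothelial genes at 1 FPKM or above, the interval lay above 1 in 2 and below 1 in 1. The summed astrocyte, oligodendrocyte lineage and neuron markers went the other way, the neuron sum being nearly all Tubb3. Among the 8 microglia genes, Cd68 was at 185 (WT) and 119 FPKM (KO). The counting interval lay below 1 in 4 of the 8 and included 1 in the other 4. The part of these marker differences in the member ratios was not tested.

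**Figure D2:**
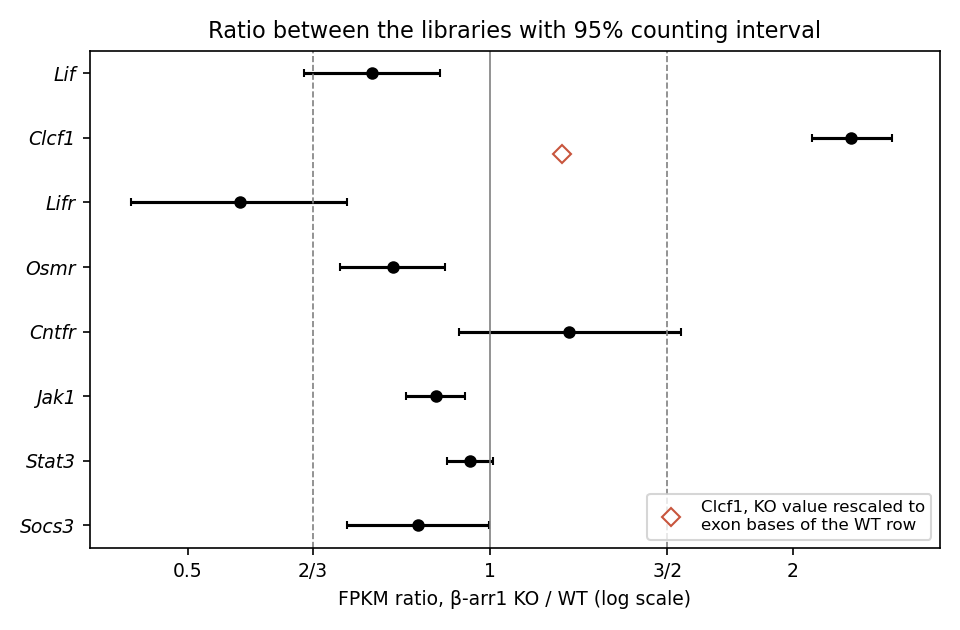
FPKM ratio of β-arr1 KO vs. WT (log scale) for the 8 listed members, with 95% counting intervals from the longest annotated transcript. Dashed lines mark 2/3 and 3/2, and the open diamond is Clcf1 after the KO value was rescaled to the exon bases of the WT row. Lifr lies at 0.563, Clcf1 at 2.29 as deposited and at 1.18 after rescaling, and the other 6 genes lie between the limits.

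Clcf1, a ligand of the CNTF receptor, had the highest ratio of the members as deposited. Its level was 42.3 (WT) and 96.8 FPKM (KO), a ratio of 2.29 with a counting interval of 2.09 to 2.51. This ratio was higher than that of 96.1% of the genes analysed, and 7.67% of the genes with a mean between 50 and 100 FPKM were past either limit. The rows behind these values did not span the same bases. Clcf1 (NCBI gene 56708) lies on the plus strand of chromosome 19, and in mm9 coordinates its row ran from 4214338 to 4223422 in the WT table and from 4214392 to 4222615 in the KO table.

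The KO row of Clcf1 thus started 54 bases later and ended 807 bases earlier, inside the last exon of the GENCODE transcript Clcf1-001. The coding sequence ends with the stop codon at 4222568, so the missing end is 3′ UTR. The KO row kept 47 bases after the stop codon and the WT row 854. Of the exon bases of the longest coding transcript, 1777 lay inside the WT row and 916 inside the KO row, or 51.5%. As FPKM is divided by length, the same fragments give a higher FPKM on a shorter model. A shorter row may also leave out fragments of the missing bases, and the rescaling below counts none there. The rescaled value is therefore no measure of the KO transcript level if such fragments existed or if the KO transcript itself is shorter. After rescaling to the exon bases of the WT row, which was added once the data had been seen, the KO level of Clcf1 was 49.9 FPKM and the ratio 1.18, between the limits and just under the 1.20 of Cntfr. With exon bases inside each row, less the 190 (WT) and 140 (KO) bases taken off every length in the depth estimate, the libraries held an estimated 630 and 715 Clcf1 fragments, a ratio per mapped fragment of 1.12 (interval, 1.00 to 1.25). The interval of 2.09 to 2.51 instead used the longest coding transcript, which gave 670 and 1601 fragments. It is too narrow if the KO value was computed on the shorter row. The call for Clcf1 therefore depends on the row length. Whether the KO cells carry a shorter Clcf1 transcript or the row alone is shorter cannot be read from the tables. Of the genes listed in both tables at 1 FPKM or more, 60.3% had the same row bounds in both, as did the other 7 listed members.

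**Figure D3:**
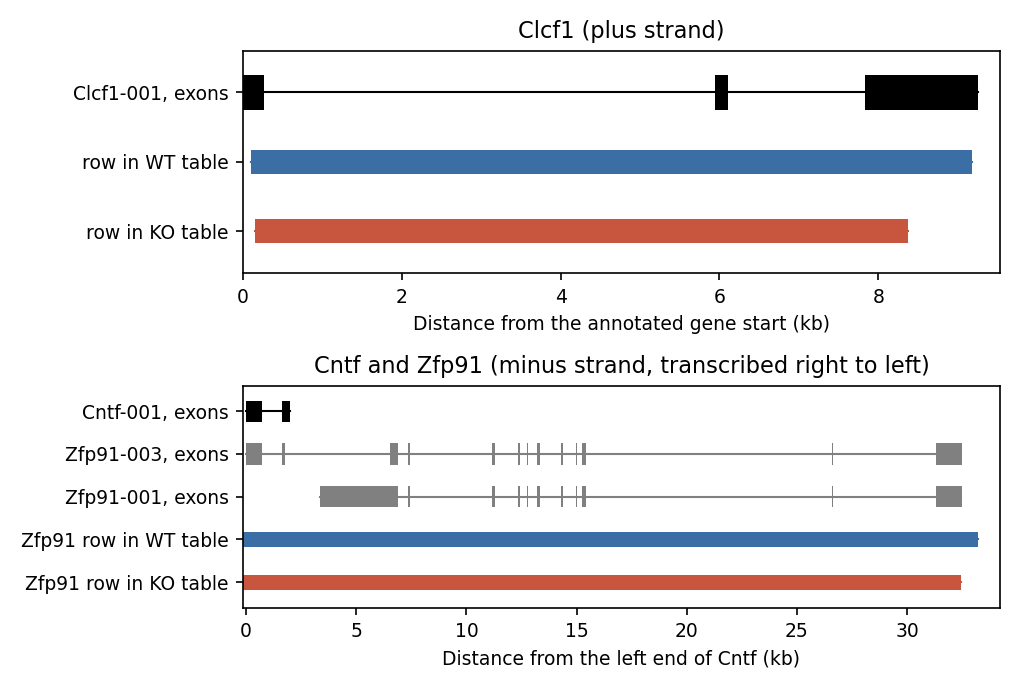
Exons of annotated transcripts (boxes) and the span of the deposited rows (bars) by distance in kb, for Clcf1 in the upper panel and for Cntf with Zfp91 in the lower panel. The KO row of Clcf1 ends 807 bases before the WT row, and the Zfp91 rows of both tables cover all exons of Cntf.

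Cntf encodes the neurotrophic cytokine after which the family's receptor is named. It was not listed in either table, so its value is 0 by the rule of the join and no ratio can be given. In the GENCODE annotation of NCBIM37 (mm9), Cntf lies on the minus strand of chromosome 19 from 12838150 to 12840122, and both of its exons (721 and 352 bases) lie inside the row of Zfp91, a zinc finger gene directly upstream. The Zfp91 row ran from 12838018 to 12871351 in WT and from 12838018 to 12870613 in KO. The annotated transcript Zfp91-003 reads through into Cntf and shares 721 and 126 bases of exon with it. Zfp91 was at 51.4 (WT) and 62.2 FPKM (KO), a ratio of 1.21 (interval, 1.15 to 1.28). How many of these fragments came from Cntf exons cannot be told from 1 value per gene, so the missing row does not show that Cntf was absent.

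Lif (NCBI gene 16878, chromosome 11, plus strand, 4157571 to 4172517) encodes the founding ligand of the group. Its level was 10.5 (WT) and 8.02 FPKM (KO), the intervals of which (9.48 to 11.6 and 7.14 to 8.99) did not overlap. The ratio was 0.763 (interval, 0.653 to 0.890), lower in KO and between the limits. Among the ligands, Clcf1 was 4.02 times as high as Lif in WT and 12.1 times in KO as deposited, or 6.22 times after rescaling of Clcf1.

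Of 9 other ligand genes and ligand partners of the gp130 family, 8 were listed and 6 reached 1 FPKM. Ebi3, a subunit of interleukin 27, was below 2/3, at 4.19 and 2.74 FPKM, but with only about 39 (WT) and 27 (KO) fragments behind it the interval (0.385 to 1.10) held 1. The other 5 lay between 0.787 and 1.34, and the median log2 ratio of the 6 genes was 0.15.

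Lifr (NCBI gene 16880, chromosome 15, plus strand, 7079572 to 7147489) encodes the signalling chain that pairs with gp130 for LIF, CNTF and CLCF1. It was at 2.06 (WT) and 1.16 FPKM (KO), from an estimated 183 and 105 fragments. The ratio was 0.563, lower than that of all but 5.46% of the genes, and its row bounds were the same in both tables. Its interval of 0.439 to 0.720 left out 1 and included 2/3. The level intervals, 1.77 to 2.38 FPKM in WT and 0.95 to 1.41 FPKM in KO, did not overlap. At such low levels many genes were past the limits: of the 964 genes with a mean between 1 and 2 FPKM, 34.96% were. With a pseudocount of 1 the ratio was 0.706, between the limits.

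Osmr (NCBI gene 18414, chromosome 15, minus strand, 6763577 to 6824313) encodes the chain that pairs with gp130 for oncostatin M. It was at 13.97 (WT) and 11.2 FPKM (KO), a ratio of 0.800 (interval, 0.709 to 0.902). Osmr was thus lower in KO within the limits, in the same direction as Lifr. Cntfr (NCBI gene 12804, chromosome 4, minus strand, 41604529 to 41644123), the α chain that binds CNTF, was at 6.72 (WT) and 8.06 FPKM (KO). Its ratio of 1.20 had an interval of 0.931 to 1.55, so a difference was not detectable at this depth.

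Ratios within a library do not depend on how the libraries are scaled. Osmr was 6.78 times as high as Lifr in WT (interval, 5.74 to 8.04) and 9.63 times in KO (interval, 7.79 to 12). Cntfr was 3.26 times as high as Lifr in WT (interval, 2.56 to 4.14) and 6.94 times in KO (interval, 5.36 to 9.02). The Cntfr intervals of the libraries did not overlap, and the Osmr intervals did. These intervals rest on the longest annotated transcripts. With the shortest coding transcripts, the intervals of the KO vs. WT ratios were 0.582 to 2.55 for Cntfr and 0.346 to 0.901 for Lifr. Whether the Cntfr intervals within the libraries would then stay apart was not tested.

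Il6st, the gp130 chain that these receptors share, was at 39.0 (WT) and 36.4 FPKM (KO), a ratio of 0.934. Its interval of 0.874 to 0.998 ended just under 1. The Il6st rows ended at different bases in WT and KO but held the same 5207 exon bases. As a ratio per mapped fragment, the interval was 0.883 to 1.01, which includes 1. Il6st had the highest level of 6 other receptor chains, 18.9 times that of Lifr in WT and 31.4 times in KO. Of these 6 chains, 5 were listed, 3 reached 1 FPKM and 0 were past the limits, with ratios from 0.789 to 1.10. The lowest ratio was that of Il11ra1, the interleukin 11 receptor. Its near-identical copy Il11ra2 was in neither table, so any reads of that copy may have been counted under Il11ra1, which was not tested.

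Jak1 (NCBI gene 16451, chromosome 4, minus strand, 100824579 to 100937887), the kinase bound to gp130, was at 41.4 (WT) and 36.6 FPKM (KO). With about 1833 and 1660 fragments, the ratio was 0.883 (interval, 0.826 to 0.944). Stat3 (NCBI gene 20848, chromosome 11, minus strand, 100748124 to 100800825) was at 50.8 (WT) and 48.6 FPKM (KO). Its ratio of 0.955 was the one closest to 1 among the members, and the interval of 0.906 to 1.01 included 1. There were 1.23 Stat3 FPKM per Jak1 FPKM in WT (interval, 1.16 to 1.30) and 1.33 in KO (interval, 1.25 to 1.41), and these intervals overlapped. Transcript levels say nothing of the phosphorylated, active STAT3 protein.

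Of 9 other Janus kinases and STATs, all were listed, 8 reached 1 FPKM and 0 were past the limits. Their ratios ran from 0.776 to 1.09, and the median log2 ratio was -0.20. The interval lay below 1 in 3 of them and above 1 in 0, against 17.9% and 21.8% of all genes listed in both. Stat6, a mediator of interleukin 4 signalling, had the highest level, 27.5 (WT) and 23.2 FPKM (KO) (ratio 0.842, interval 0.765 to 0.927). Jak1 was 3.97 times as high as Jak2, another gp130-bound kinase, in WT and 3.53 times in KO.

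**Figure D4:**
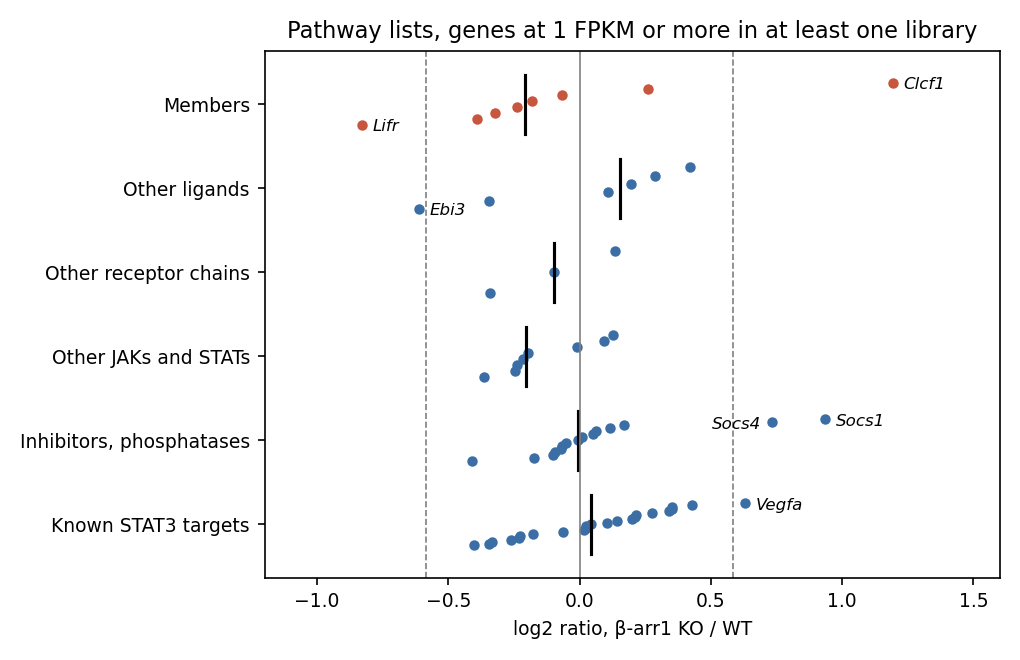
log2 ratio of β-arr1 KO vs. WT for the members and 5 lists of other pathway genes at 1 FPKM or above in WT, KO or both; each point is a gene, black bars are list medians, dashed lines mark 2/3 and 3/2, and the genes past them are named. Past the limits are 2 members, Ebi3 among the ligands, Socs1 and Socs4 among the inhibitors and Vegfa among the known targets.

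Socs3 (NCBI gene 12702, chromosome 11, minus strand, 117827401 to 117830680) is both a target and an inhibitor of STAT3. It was at 14.6 (WT) and 12.4 FPKM (KO), with a ratio of 0.847 and an interval, 0.720 to 0.996, that ended just under 1. The intervals of the levels, 13.1 to 16.3 FPKM and 11.01 to 13.9 FPKM, overlapped. There were 3.47 Stat3 FPKM per Socs3 FPKM in WT (interval, 3.09 to 3.90) and 3.91 in KO (interval, 3.46 to 4.44), and these intervals overlapped as well.

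STAT proteins bind DNA at a palindrome, TTCNNNGAA, where N is any base. The RefSeq promoters (GRCm38.p6, from 250 bases before to 50 bases after a start) held 8 of the 9 members by symbol, Clcf1 being the other, and the palindrome was found in 1 of these 8, Socs3. It was in 3 of 19 known STAT3 targets with a promoter, and in 9.55% of all 27025 genes with one. As a palindrome it reads the same on both strands. The sequences are shown because Socs3 is the member that reports back on STAT3 and because Gfap, chosen after its values were seen, is the astrocyte gene among the targets. Capitals mark the match.

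Socs3, the 250 bases before the RefSeq start, chr11:117830681-117830930 of mm9 by sequence match, minus strand: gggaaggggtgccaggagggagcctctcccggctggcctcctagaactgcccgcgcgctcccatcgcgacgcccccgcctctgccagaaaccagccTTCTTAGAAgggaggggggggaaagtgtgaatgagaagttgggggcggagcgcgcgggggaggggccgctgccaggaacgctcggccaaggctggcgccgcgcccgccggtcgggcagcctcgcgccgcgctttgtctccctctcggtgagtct
Gfap, 29 bases around the match, chr11:102758498-102758526 of mm9 by sequence match, minus strand: atgggggtgcTTCCAGGAAgtcaggggca

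The match in Socs3 began 154 bases before the start, and the stretch shown lies directly beside the deposited Socs3 row, whose last base is 117830680. The match in Gfap began 2 bases before the start. A match describes letters only, and binding of STAT3 was not measured here. Gfap itself was at 189 (WT) and 192 FPKM (KO), a ratio of 1.02 (interval, 0.976 to 1.06).

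Of 23 known STAT3 target genes, Socs3 not counted, all were listed and reached 1 FPKM. Vegfa, an angiogenic factor, was the only one past a limit, at 30.3 (WT) and 46.8 FPKM (KO) (ratio 1.55, interval 1.43 to 1.68). The ratios of the other 22 ran from 0.757 to 1.34. The interval lay above 1 in 8 of the 23 and below 1 in 4, against 21.8% and 17.9% of all genes listed in both. Genes with many fragments have narrow intervals, so such counts reflect the level as well. The median log2 ratio was 0.04, close to the 0.02 of all genes. Vim, an intermediate filament gene, had the highest level, 3224 (WT) and 3745 FPKM (KO), a ratio of 1.16. Many of these genes are also driven by other factors, so the list is no measure of STAT3 alone.

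Of 15 inhibitors and phosphatases of the pathway besides Socs3, all reached 1 FPKM, 2 were above 3/2 and 0 below 2/3. Socs1, which blocks Janus kinases, was at 2.0 (WT) and 3.82 FPKM (KO). About 19 and 39 fragments stood behind its ratio of 1.91 (interval, 1.08 to 3.50). Socs4, of the same gene family, was at 5.28 (WT) and 8.76 FPKM (KO), a ratio of 1.66 (interval, 1.45 to 1.91). The other 13 lay between 0.752 and 1.12. Ptpn11, the phosphatase that docks on gp130, had the highest level, 60.6 (WT) and 58.5 FPKM (KO). The Socs2 row (chromosome 10) began at base 94850990 (WT table) or 94874124 (KO table). Its ratio of 1.04 came to 0.378 when rescaled to the exon bases of the WT row. Of the 4244 bases of its longest coding transcript, only 1250 lay inside the WT row and 453 inside the KO row. Which transcript the Socs2 values rest on is not known, so the 0.378 is uncertain. With KO values rescaled in this way, 3 of the 15 were past the limits, Socs2 among them. Over all genes 2304 were, against 2256 as deposited.

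**Figure D5:**
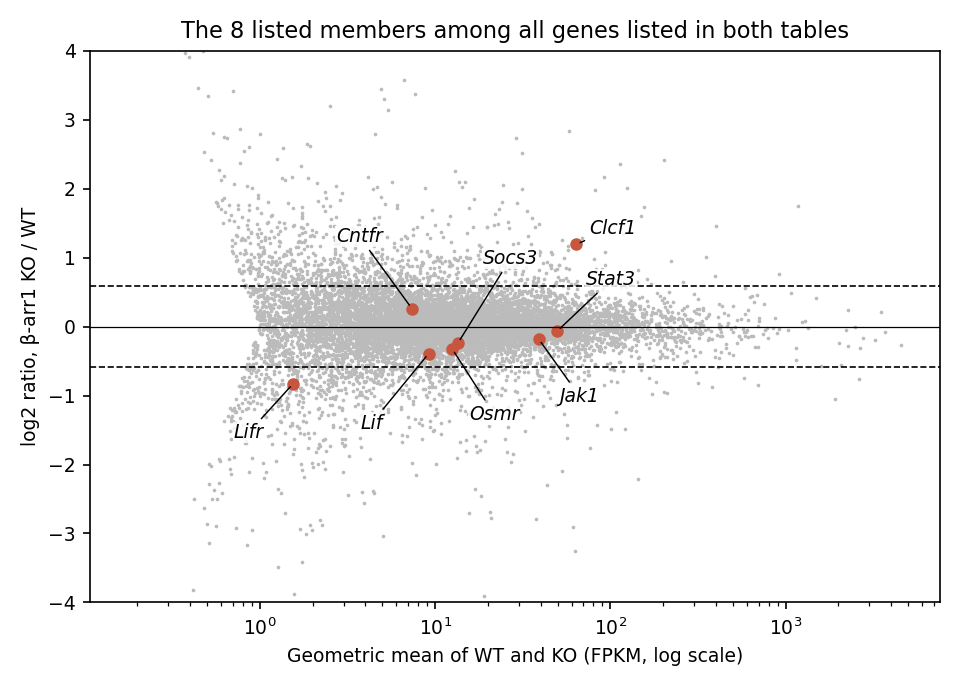
log2 ratio of β-arr1 KO vs. WT against the geometric mean of both levels (FPKM, log scale), with 12150 genes in grey (21 genes lie beyond the axis limit of 4) and the 8 listed members in red; dashed lines mark 2/3 and 3/2. Lifr lies in the low range where the spread of all genes is wide, and Clcf1, as deposited, lies above most genes of its level.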

How the data were processed

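RNA from cultured DG astrocytes was sequenced, 1 library per genotype. The authors aligned paired reads of 100 bases to mm9 with TopHat (1.4.0 in the submitters' processing notes), ran Cufflinks (version not given in the sources used here) and deposited 1 FPKM value per gene, with a symbol, a locus and gene ontology text. Only values above 0 are listed.

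Tables were joined by symbol, the highest row was kept where a symbol had several, and 0 was set for a gene not listed. Genes at 1 FPKM or above in WT, KO or both were kept, and no pseudocount was added. Row starts count from 0 in the files, and 1 was added: 47.3% of starts in WT then equalled a GENCODE start (3.84% as written). The depth was fitted on genes under 0.15 FPKM with 1 annotated transcript over 1000 bases, of which 70.7% in WT (416 genes) and 70.8% in KO (435 genes) lay within 5% of a step, after 190 and 140 bases were taken off the length. Where the cells use a shorter transcript, the true interval is wider. The scripts were tested on simulated data with known ratios.

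Members and gene lists were chosen with earlier results of these data known. Named are all members, Arrb1, genes whose rows overlap a member, Il6st, pathway genes past a limit and the highest gene of each pathway list. Some results under this rule are not reported here. With 2 libraries no likeness of pattern can be measured. The alternatives were pseudocounts, rescaled libraries, other minimums and limits, summed rows and shorter transcripts. Computations ran in Python 3.11.15 (scipy 1.17.1, pandas 2.3.3, numpy 2.4.6), and plots were drawn with matplotlib 3.10.9.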

Additional observations from a re-analysis of the deposited data

How the results depend on the processing

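No paired analysis was possible because each genotype has 1 library and the labels carry no replicate numbers. Under pseudocounts of 0.1 and 1, 3 ways of rescaling the libraries and summed rows, each listed member's ratio kept its direction. The member ratio that moved beyond its interval was that of Clcf1, to 1.18 with KO values rescaled to the exon bases of the WT row. This rescaling, the restriction to genes with the same row bounds and the use of exon bases inside each row were chosen after seeing the data. The number of members past the limits was 1 instead of 2 with that rescaling, with a pseudocount of 1, with a minimum of 5 FPKM, with limits of 2 and 1/2, and with the same row bounds, since Lifr or Clcf1 was then left out or within the limits. The number over all genes was 2256 and became 3969 with a minimum of 0.1 FPKM, 1179 with 5 FPKM, 1372 with 1 FPKM in both libraries, 1163 with limits of 2 and 1/2 and 1015 with the same row bounds. Among the other ligands, 1 became 0 with a pseudocount of 1, with a minimum of 5 FPKM and with limits of 2 and 1/2, and 3 with a minimum of 0.1 FPKM, a minimum that also gave 1 instead of 0 among receptor chains. Among the inhibitors, 2 became 1 with a minimum of 5 FPKM or the same row bounds and 0 with limits of 2 and 1/2, and among the known targets 1 became 0 with limits of 2 and 1/2. Taking the shortest coding transcript widened the interval of Jak1 to between 0.656 and 1.19, which includes 1. Among the listed members, Lifr and Cntfr have the fewest fragments and are limited most by depth.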
